A study of Mus musculus with 8 samples.

Results

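Transcripts of 9 regulators of the limb bud were followed in whole mouse embryos at embryonic day 9.5, when the forelimb bud has emerged and the hindlimb bud is beginning to form. The genes were chosen by name as limb field regulators other than Hox genes, FGF genes and the T-box genes of the heart, and all 9 were found among the 41709 gene symbols of the deposited table: Tbx3, Tbx4, Pitx1, Grem1, Lhx9, Irx5, Prrx1, Sall1 and Sall4. RNA came from 4 embryos with only wild-type Smo (WT) and 4 embryos in which both Smo alleles carried the K399A substitution (mutant), which the labels number 1 to 4 within each genotype. Both genotypes came from crosses of heterozygous parents, over several litters, and the labels do not tie an embryo to a litter, to a somite number or to a sex. Each embryo was frozen and sequenced on its own, so the 4 values of a group are 4 embryos, and the altered Smo was present in every tissue of the mutants.

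Smo encodes Smoothened, which passes the Hedgehog signal from the receptor Patched to the GLI transcription factors. In the limb bud, Sonic hedgehog made by cells at the posterior margin sets the number and identity of digits, and Grem1, a secreted antagonist of BMP ligands, keeps the loop between Sonic hedgehog and the FGFs of the ectodermal ridge running. Pitx1 and Tbx4 mark the hindlimb, where Pitx1 acts upstream of Tbx4. Prrx1 and Lhx9 are homeobox genes of limb mesenchyme, Tbx3 is a T-box gene of the limb margins, Irx5 acts with Irx3 in early limb progenitors, and Sall1 and Sall4 encode zinc finger proteins with roles in limb, kidney and other organs. None of these genes is specific to the limb: in a whole embryo Pitx1 is also made in the first pharyngeal arch and oral ectoderm, Tbx4 in the allantois, and Sall4 widely in early cells. A lower value in bulk RNA can come from fewer cells of a type or from less RNA per cell, and these cannot be told apart here.

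RefSeq promoter entries (build GRCm38.p6) were found for 5 of the 9 genes: Tbx4, Prrx1, Sall1, Grem1 and Lhx9. The bases before the annotated start, 250 for Tbx4 and Sall1 and 190 for Prrx1, are shown for 1 gene of each of the 3 pairs whose levels ran together over the embryos, described further on. They are cut short for Prrx1 where a GENCODE exon of the gene begins. The Tbx4 window is chr11:85896515-85896764 on the plus strand. It precedes a RefSeq start inside the gene, which GENCODE places at 85886422 to 85916097. The Prrx1 window is chr1:163313711-163313900 on the minus strand. The Sall1 window, before the most upstream of its 3 listed starts, is chr8:89044163-89044412 on the minus strand. Capitals mark TAATTA, a core bound by many homeodomain proteins, which was the only match.
Tbx4: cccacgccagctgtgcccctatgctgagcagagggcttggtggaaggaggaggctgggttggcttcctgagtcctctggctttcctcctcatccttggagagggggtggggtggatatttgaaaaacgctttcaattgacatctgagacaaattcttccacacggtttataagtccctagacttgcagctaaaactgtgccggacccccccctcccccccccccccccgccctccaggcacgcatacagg
Prrx1: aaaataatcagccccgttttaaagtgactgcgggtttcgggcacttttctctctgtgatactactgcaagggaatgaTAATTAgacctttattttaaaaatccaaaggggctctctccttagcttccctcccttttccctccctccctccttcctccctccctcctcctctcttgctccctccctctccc
Sall1: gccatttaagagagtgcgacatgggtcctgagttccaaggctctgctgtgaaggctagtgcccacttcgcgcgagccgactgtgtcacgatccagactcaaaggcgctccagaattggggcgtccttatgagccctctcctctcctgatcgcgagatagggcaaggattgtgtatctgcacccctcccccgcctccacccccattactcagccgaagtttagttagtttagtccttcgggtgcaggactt
Both strands of the 250 bases before each start were searched for GACCACCCA, the site of GLI proteins, for TAATCC, the site of Pitx proteins, and for TAATTA; the motifs share letters, but no match overlapped another. GACCACCCA and TAATCC were in none of the windows of the 5 genes, against 0.225% and 6.25% of 32851 RefSeq promoter windows of the same length. TAATTA was in the Prrx1 window, starting 173 bases before the start, and in 4.84% of all windows. These letters describe the windows alone, and elements outside them were not searched.

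Expression was given by the authors as TPM, reads divided by gene length and scaled to the same total in each library, which allows levels of different genes to be compared. Whole read numbers could be recovered from the steps between TPM values and came to between 59.09 and 60.46 M reads per library over genes of known length. The libraries of mutants 3 and 4 stood apart from the rest: the summed TPM of 15 small nucleolar RNA host genes was 270 and 261 there and 526 to 652 in the other 6, and mt-Nd6 was at 4.06 and 10.8 TPM against 27.9 to 36.2. Of 13 yolk sac endoderm markers, all had a higher mean in mutants, where 37.7% of all genes tested did, and 0 passed limma's threshold. All 13 were higher at an unadjusted p under 0.05, where 5.55% of all genes were. The summed TPM of the 13 markers was 147 to 1340 in mutants against 16.0 to 259 in WT, with WT 3 above mutants 3 and 4. None of the markers was at 0 in any embryo. Trophoblast and decidua markers summed to 23.5 to 316 TPM in mutants and 9.85 to 30.4 in WT. The highest sum was in mutant 2, where Prl8a2 alone was at 291 TPM. Of the 9 markers, 3 were at 0 in at least 1 embryo. Only 4 of the 9 were tested, and all 4 had a higher mean in mutants. By limma 0 passed the threshold, and 2 were higher at an unadjusted p under 0.05. The part of these RNAs in the values below was not tested beyond the fits given with them.

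The 9 genes spanned a wide range of levels. Sall1 and Sall4 were the most abundant, at a mean over the 8 embryos of 71.0 and 70.9 TPM, followed by Pitx1 at 46.8 TPM. Irx5 and Prrx1 came next at 22.5 and 21.3 TPM, then Tbx3 at 14.4, Tbx4 at 11.3, Grem1 at 6.24 and Lhx9 at 1.24 TPM. Sall1 and Sall4 were not separated by their spread, with Sall1 the higher in 5 of 8 embryos, and Irx5 exceeded Prrx1 in 4 of 8. The ranges of Pitx1 and Irx5, of Tbx4 and Grem1, and of Grem1 and Lhx9 did not overlap.

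**Figure D1:**
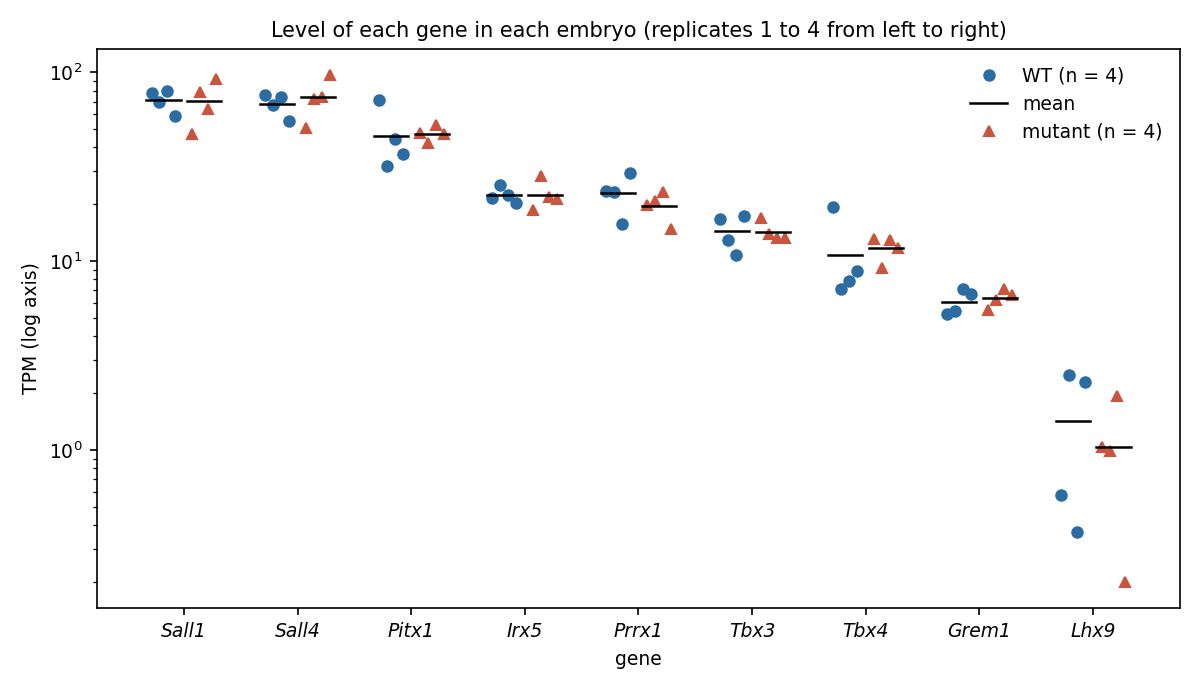
TPM of each of the 9 genes (horizontal axis, ordered by mean level) on a log axis, with 1 point per embryo, WT as circles, mutants as triangles, and the mean of each group as a bar. For every gene the 2 groups overlap, and Lhx9 runs from 0.199 to 2.49 TPM while Grem1 stays between 5.26 and 7.10.

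The comparison of mutant with WT asked whether these limb regulators were transcribed at other levels when Smoothened carried the substitution. None of the 9 passed the test. By limma on log2(TPM + 1) over 13596 genes, 0 of the 9 had an adjusted p under 0.05, where 0.0% of all genes tested did, and 0 had an unadjusted p under 0.05, against 13.5% of all genes. Limma voom on the recovered reads also called 0 of the 9, with 0 at an unadjusted p under 0.05. The values of the 2 groups overlapped for all 9, while they were apart for 7.46% of all genes (3.63% higher and 3.82% lower in mutants). Of the 9 log2 fold changes, 5 were above 0 and 4 below, where 37.7% of all genes were above 0, and their median was 0.01, against -0.04 over all genes. Under median-ratio scaling, which brought 48.9% of all genes above 0, Irx5 moved above 0 too. Of the genes at an unadjusted p under 0.05, 40.9% were higher in mutants, and 56.5% under that scaling. Two-sided exact permutation p values ran from 0.371 to 0.943, and the smallest that 4 embryos against 4 allow is 0.0286.

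**Figure D2:**
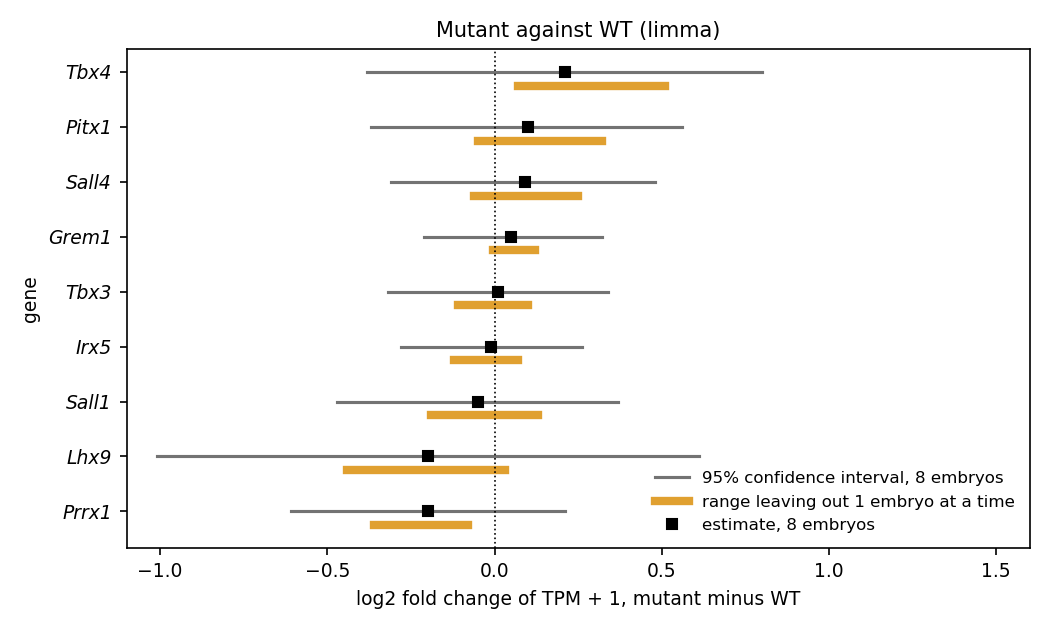
Log2 fold change of TPM + 1, mutant minus WT, for each gene (square) with its 95% confidence interval over 8 embryos (thin line) and the range of estimates when each embryo was left out in turn (thick bar). All intervals cross 0, and the widest is that of Lhx9, from -1.01 to 0.61.

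The hindlimb genes Pitx1 and Tbx4 were similar in mutants and WT on average, but a single WT embryo stood far above the others. Pitx1, a paired-like homeobox gene that gives the hindlimb its identity (chromosome 13, 55825051 to 55836192, minus strand, build GRCm38), was at 71.5, 32.1, 44.6 and 36.8 TPM in WT 1 to 4 and 47.5, 42.3, 52.3 and 47.3 TPM in mutants 1 to 4. Tbx4, the T-box gene of the hindlimb (chromosome 11, 85886422 to 85916097, plus strand), was at 19.3, 7.13, 7.90 and 8.83 TPM in WT against 13.1, 9.23, 13.0 and 11.7 TPM in mutants. For both genes WT 1 was the highest of the 8 embryos and WT 2 the lowest, so the WT range enclosed the mutant range. The spread was wider in WT than in mutants, with means of 46.3 ± 17.6 and 47.4 ± 4.09 TPM (SD, n = 4 each) for Pitx1 and 10.8 ± 5.71 and 11.8 ± 1.82 TPM for Tbx4; this difference in spread was not tested.

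The log2 fold change of Tbx4 was 0.21 ± 0.26 (SE; limma adjusted p = 0.713; 95% interval -0.38 to 0.80) and that of Pitx1 was 0.10 ± 0.21 (adjusted p = 0.84; -0.37 to 0.56). WT 1 was singled out because it was the highest embryo for both genes, so leaving it out had to raise both fold changes. The values without it are therefore a description and no test of the genotypes. Without WT 1, Tbx4 was at 7.95 ± 0.852 TPM in the other 3 WT embryos, all below the 4 mutants. Its log2 fold change became 0.51 ± 0.14 (limma unadjusted p = 0.00602, adjusted p = 0.564). Tbx4 was then the 1 gene of the 9 whose groups were apart, where 9.19% of all genes were. Pitx1 without WT 1 had a log2 fold change of 0.32 ± 0.12 (limma unadjusted p = 0.0217, adjusted p = 0.564), with WT 3 still above mutant 2. Neither passed the threshold over all genes, of which 8.52% had an unadjusted p under 0.05 without WT 1, and without WT 2 the log2 fold changes were 0.07 for Tbx4 and -0.05 for Pitx1. Of 16 posterior Hox genes, which mark the tail end of the embryo, 13 were tested. All 13 had a lower mean in mutants, where 37.7% of all genes had a higher one, with a median log2 fold change of -0.71. None passed limma's threshold, and 6 were lower at an unadjusted p under 0.05 (8.0% of all genes were), or 4 under median-ratio scaling. WT 1 had the highest posterior Hox score, a mean log2(TPM + 1) of 4.52 over the 13 against 2.75 to 4.15 in the other 7 embryos. Hoxa13, a gene of the tail end and distal limb that was picked from that list after its values were seen, was at 6.75 TPM in WT 1 and at 1.78 to 4.84 TPM elsewhere.

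Other tissues that make these genes were measured beside them. Of 6 genes of allantois and extraembryonic mesoderm, all 6 had a higher mean in mutants, where 37.7% of all genes did, and 0 passed limma's threshold. At an unadjusted p under 0.05, 3 were higher, where 5.55% of all genes were. Their summed TPM lay between 368 and 474 in the WT embryos and between 440 and 780 in the mutants, highest in mutant 1, and none of them was at 0. With the yolk sac endoderm score as a covariate the log2 fold change of Tbx4 was 0.51 (limma adjusted p = 0.506) and that of Pitx1 0.21. Pitx1 shares 10.3% of its exon length with Gm28760 and Gm47071, and the labels do not say whether strand was used in counting. Gm28760, an overlapping locus on the same strand, was at 1.95 TPM in WT 1 and at 0.145 to 0.672 TPM in the other 7 embryos, too low to be tested. Gm47071, on the other strand, was at 1.66 to 3.90 TPM in WT and 2.51 to 4.78 TPM in mutants, highest in mutant 4.

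Tbx4 and Pitx1 ran together from embryo to embryo. Over the 8 embryos their log2(TPM + 1) values had a Pearson r of 0.92 and a Spearman rho of 0.90, and r was 0.93 after each genotype was centred on its own mean. Of all other tested genes, Pitx1 had the highest r with Tbx4, and Tbx4 ranked 2 for Pitx1, behind Fam162a (r = 0.93), a mitochondrial protein gene. The relation leaned on the extremes in part, since r was 0.73 over the 6 embryos left when WT 1 and WT 2 were set aside. The ratio of Tbx4 to Pitx1 TPM was 0.177 to 0.277 over all 8 embryos. The genes lie on different chromosomes, and each point takes both values from 1 library of a whole embryo.

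**Figure D3:**
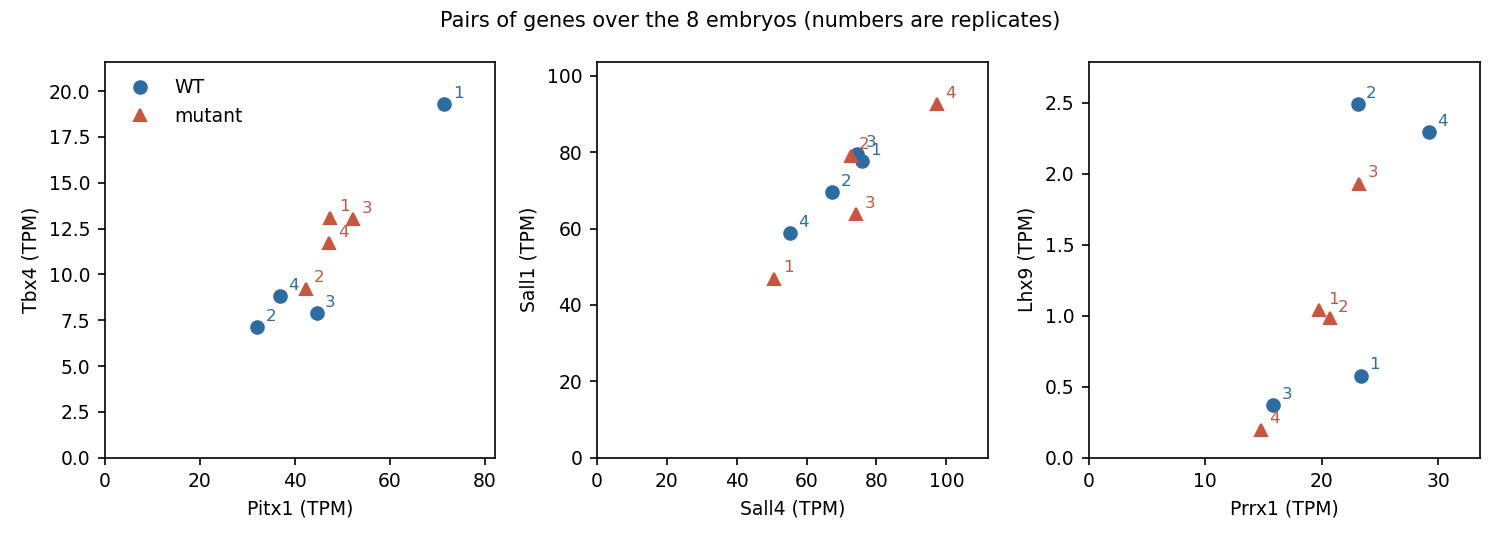
TPM of Tbx4 against Pitx1 (left), Sall1 against Sall4 (middle) and Lhx9 against Prrx1 (right), with 1 point per embryo, WT as circles and mutants as triangles, numbered by replicate. In each panel the values of WT and mutants overlap, with WT 1 far out on the left panel and mutants 1 and 4 at the ends of the middle one. The ratio of Sall1 to Sall4 is below that of every WT embryo in mutants 1, 3 and 4 and above it in mutant 2. The ratio of Lhx9 to Prrx1 runs from 0.0135 to 0.108.

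The mesenchyme genes Prrx1 and Lhx9 were on average somewhat lower in mutants, within the spread. Prrx1, a paired-related homeobox gene of limb and head mesenchyme (chromosome 1, 163245119 to 163313710, minus strand), was at 23.4, 23.1, 15.8 and 29.2 TPM in WT 1 to 4 and 19.8, 20.7, 23.2 and 14.8 TPM in mutants 1 to 4. WT 3 and mutant 4 were the low embryos and WT 4 the high one, and the groups overlapped. Its log2 fold change of -0.20 ± 0.18 had the smallest p of the 9 genes (limma unadjusted p = 0.305, adjusted p = 0.612; 95% interval -0.61 to 0.21). It was -0.36 without WT 3, the lowest WT embryo (limma unadjusted p = 0.0441, adjusted p = 0.459). Without WT 4, the highest, it was -0.08, and with the yolk sac covariate -0.01. Its paralogue Prrx2 was at 64.5 ± 5.56 TPM in WT against 77.8 ± 12.3 TPM in mutants (limma adjusted p = 0.352), so the 2 relatives had fold changes of opposite sign, and neither passed.

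Lhx9, a LIM homeobox gene of limb mesenchyme and gonad (chromosome 1, 138825186 to 138848577, minus strand), was the most variable of the 9. It was at 0.578, 2.49, 0.369 and 2.29 TPM in WT 1 to 4 and 1.04, 0.985, 1.93 and 0.199 TPM in mutants 1 to 4. WT 2, WT 4 and mutant 3 were high and WT 1, WT 3 and mutant 4 low, so both genotypes held embryos at either end, 6.75-fold apart in WT and 9.68-fold in mutants. Lhx9 rested on 36 to 439 reads per library, and in mutant 4 the exact Poisson 95% interval ran from 0.139 to 0.276 TPM, against 2.26 to 2.73 TPM in WT 2. These intervals cover counting error only, and the spread between embryos went far beyond it. Lhx9 reached 1 TPM in only 4 embryos, the minimum for being tested, and its log2 fold change of -0.20 ± 0.36 (limma adjusted p = 0.806) was 0.01 without WT 2 and 0.03 without mutant 4. Lhx2, its close relative in limb, forebrain and eye, was at 25.1 ± 3.66 TPM in WT against 15.2 ± 4.77 TPM in mutants, with groups that did not overlap and an adjusted p of 0.281 by limma.

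Lhx9 and Prrx1 also ran together over the embryos, at a Pearson r of 0.82 and a Spearman rho of 0.64, but r was 0.53 without WT 3 and mutant 4, the embryos farthest from the median of Prrx1, so the relation rested in part on them. It was 0.79 without WT 2 and mutant 4, the farthest for Lhx9. WT 1 departed from this, with Prrx1 among the highest and Lhx9 among the lowest. Hoxd12, a gene of the distal limb and tail that was picked after its values were seen, was at 4.33, 6.27, 1.03 and 9.39 TPM in WT against 0.359, 1.19, 2.63 and 0.0414 TPM in mutants. Hoxd12 was lowest in mutant 4, where Prrx1 and Lhx9 were lowest, and highest in WT 4, where Prrx1 was highest. Its r with Prrx1 was 0.88 (rho 0.90; 0.90 without WT 3 and mutant 4 and 0.69 without WT 4 and mutant 4, the farthest for Hoxd12) and with Lhx9 0.74 (rho 0.74; 0.53 without WT 2 and mutant 4). No label gives the somite number of an embryo, so the part of developmental stage in this spread was not tested.

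Tbx3 and Grem1 were close to level between genotypes. Tbx3, a T-box gene of the limb margins that also acts in the heart (chromosome 5, 119670669 to 119684724, plus strand), was at 16.7, 12.9, 10.8 and 17.3 TPM in WT 1 to 4 and 16.9, 14.0, 13.2 and 13.2 TPM in mutants 1 to 4. Its log2 fold change was 0.01 ± 0.15 (limma adjusted p = 0.985), with an interval from -0.32 to 0.34, so changes of fold 0.798 to 1.27 on the scale of TPM + 1 could not be told from none. Tbx3os1, which overlaps 1.7% of its exon length on the other strand, was at 0.133 to 0.662 TPM. Tbx2, its nearest relative, was at 17.4 ± 3.43 and 15.5 ± 5.21 TPM (limma adjusted p = 0.683). Tbx5, the T-box gene of the forelimb and heart, was at 4.65 ± 1.22 and 8.36 ± 1.71 TPM in groups that did not overlap (limma adjusted p = 0.281). The ratio of Tbx4 to Tbx5 was 5.22 in WT 1 and 1.22 to 2.20 in the other 7 embryos.

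Grem1, the BMP antagonist of limb mesenchyme (chromosome 2, 113746164 to 113758646, minus strand), was the most even of the 9 over all embryos, 1.35-fold from lowest to highest. It was at 5.26, 5.43, 7.10 and 6.67 TPM in WT 1 to 4 and 5.52, 6.22, 7.09 and 6.63 TPM in mutants 1 to 4. The groups covered nearly the same range, and its log2 fold change was 0.05 ± 0.12 (limma adjusted p = 0.843; 95% interval -0.21 to 0.32). Bmp4, a ligand that Grem1 binds, was at 40.5 ± 6.54 TPM in WT against 45.8 ± 7.31 TPM in mutants (limma adjusted p = 0.54). Shh itself was at 20.7 ± 4.50 and 18.1 ± 5.42 TPM (limma adjusted p = 0.669). These are values of whole embryos, and the limb's part in them was not measured.

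Irx5, an Iroquois homeobox gene (chromosome 8, 92357625 to 92376286, plus strand), was at 21.7, 25.4, 22.4 and 20.4 TPM in WT 1 to 4 and 18.6, 28.3, 21.8 and 21.4 TPM in mutants 1 to 4. Mutant 1 was the lowest and mutant 2 the highest of the 8, and the WT embryos lay between them. Its log2 fold change was -0.01 ± 0.12 (limma adjusted p = 0.974; 95% interval -0.28 to 0.26) and turned to 0.03 with median-ratio scaling. Irx3, its partner in the limb and a neighbour in the same cluster, was at 81.1 ± 5.55 TPM in WT against 79.9 ± 12.0 TPM in mutants. The ratio of Irx5 to Irx3 stayed between 0.257 and 0.301 over the 8 embryos, 1.17-fold from end to end. Over the same embryos the 2 genes had an r of 0.89 (rho 0.90), which was 0.66 without mutants 1 and 2.

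The zinc finger genes Sall1 and Sall4 were at similar mean levels in both genotypes and ran together over the embryos. Sall1 (chromosome 8, 89027235 to 89044162, minus strand) was at 77.7, 69.6, 79.6 and 58.8 TPM in WT 1 to 4 and 46.9, 79.1, 63.7 and 92.6 TPM in mutants 1 to 4. Sall4 (chromosome 2, 168748332 to 168767943, minus strand) was at 75.8, 67.3, 74.4 and 55.2 TPM in WT against 50.8, 72.6, 74.2 and 97.2 TPM in mutants. Mutant 1 was the lowest and mutant 4 the highest of the 8 embryos for both genes, so the mutant range enclosed the WT range. The log2 fold changes were -0.05 ± 0.19 for Sall1 (limma adjusted p = 0.914; 95% interval -0.47 to 0.37) and 0.09 ± 0.18 for Sall4 (adjusted p = 0.832; -0.31 to 0.48). Without mutant 1 they were 0.13 and 0.25, and without mutant 4 they were -0.19 and -0.06. Sall1 was also above 0 without WT 3 (0.004), and Sall4 was also below 0 without WT 4 (-0.01). For each gene, leaving out 1 embryo was enough to change the sign. Array weights and the yolk sac covariate also turned Sall1 positive.

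Pearson's r between Sall1 and Sall4 was 0.92 (rho 0.83), 0.95 within genotypes, and 0.75 without mutants 1 and 4. The ratio of Sall1 to Sall4 lay between 1.02 and 1.07 in the WT embryos and between 0.859 and 1.09 in the mutants. Sall3, another member of the family, followed Sall1 at an r of 0.91 and a rho of 1.0, and Sall2 at an r of 0.85. Sall3 was at 13.9 ± 1.47 TPM in WT against 12.9 ± 4.78 TPM in mutants and Sall2 at 94.9 ± 11.4 and 92.8 ± 16.6 TPM, and neither passed the test. Sall4 shares 9.5% of its exon length with Gm14261 on the other strand, which was at 0.260 to 0.622 TPM. Mutant 1, where all 4 Sall genes were lowest, also had the highest yolk sac endoderm sum of 1340 TPM and the lowest posterior Hox score of 2.75. Mutant 4, where Sall1 and Sall4 were highest, was 1 of the 2 libraries that stood apart, and without mutants 3 and 4 the log2 fold changes were -0.22 for Sall1 and -0.15 for Sall4.

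These 3 pairs were the highest of the 36 pairs of the 9 genes by Pearson's r, and the next was Tbx3 with Prrx1 at 0.62. High values of r were easy to reach over 8 embryos: for each of the 9, some gene among all those tested reached at least 0.92. The most alike was Bvht for Tbx3 (r = 0.94), Mief1 for Grem1 (0.96), Nhlrc1 for Lhx9 (0.96), Cxadr for Irx5 (0.96), Kcna6 for Prrx1 (0.95), Prmt5 for Sall1 (0.99) and Rcl1 for Sall4 (0.99). Sall4 ranked 74 among the genes most like Sall1, and Prrx1 ranked 89 for Lhx9.

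The spread between embryos of 1 genotype was larger for most of these genes than for a typical gene. The standard deviation of log2(TPM + 1) within genotypes was 0.62 for Lhx9, 0.45 for Tbx4, 0.36 for Pitx1, 0.33 for Sall1 and 0.31 for Sall4 and Prrx1. It was 0.24 for Tbx3, 0.19 for Irx5 and 0.16 for Grem1, against a median of 0.14 over all tested genes. Apart from Lhx9, each of the 9 rested on at least 410 reads in every library, and counting error was at most 4.94% of the value. That largest error was for Grem1, whose SD between embryos was 14.9% of the mean in WT and 10.5% in mutants. For Lhx9 counting error reached 16.7%, and the SD was 77.7% of the mean in WT and 68.0% in mutants.

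Other genes of the limb bud were as evenly divided as the 9. A list of 24 held ligands of the ridge and margin, mesenchymal homeobox genes and genes of dorsal and ventral ectoderm, among others. Of the 24, 12 were higher and 12 lower in mutants, where 37.7% of all genes were higher. The median log2 fold change was 0.01, against -0.04 over all genes, and 0 passed limma's threshold. At an unadjusted p under 0.05 there were 2 higher and 1 lower, where 5.55% and 8.0% of all genes were. The higher 2 were Tbx5 and Hand2, a transcription factor of the posterior limb and heart, at 39.8 ± 7.95 TPM in WT against 55.5 ± 9.23 TPM in mutants (limma adjusted p = 0.299). The lower was Alx4, a homeobox gene of the anterior limb, at 23.7 ± 1.32 and 18.8 ± 3.57 TPM (adjusted p = 0.324). Fgf10, the FGF of limb mesenchyme that starts outgrowth, was at 6.16 ± 1.57 and 7.81 ± 1.91 TPM. Fgf8, a gene of the ridge, was at 26.0 to 34.4 TPM in WT and 24.5 to 33.5 TPM in mutants. The values of this list are of whole embryos, and the limb's part in them was not measured.

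Among 12 relatives of the 9 genes, 10 were tested and 0 passed limma's threshold. Of the 10, 5 were higher and 5 lower in mutants, where 37.7% of all genes were higher. Under median-ratio scaling 7 were higher and 3 lower, where 48.9% of all genes were higher. At an unadjusted p under 0.05 there were 2 higher, Tbx5 and Prrx2, where 5.55% of all genes were, and 1 lower, Lhx2, where 8.0% were. Pitx3 and Irx6 stayed below 1 TPM and were not tested.

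**Figure D4:**
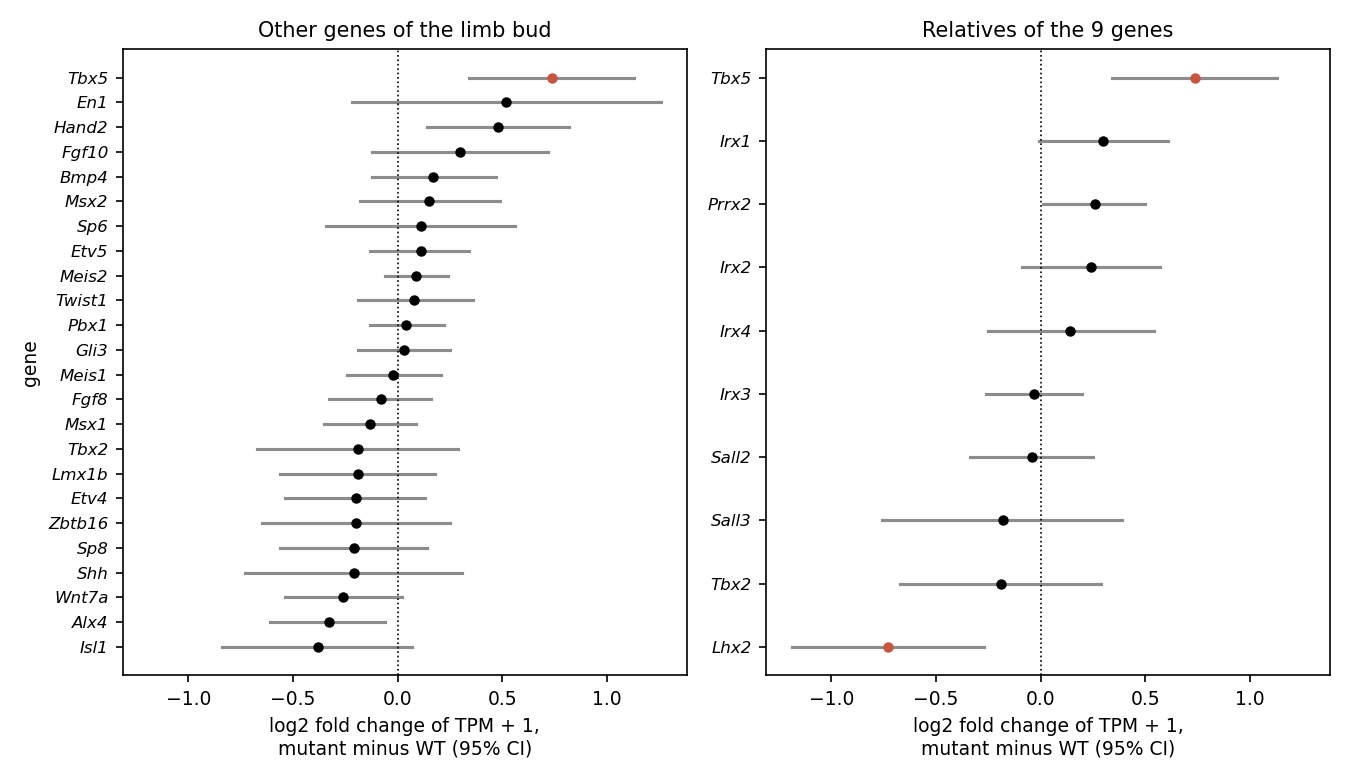
Log2 fold change of TPM + 1, mutant minus WT, with its 95% confidence interval, for 24 other limb bud genes (left) and the 10 tested relatives of the 9 genes (right). Coloured points mark genes whose WT and mutant values did not overlap, Tbx5 above 0 and Lhx2 below it.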

How the data were processed

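RNA of 8 whole embryos was analysed from a table of TPM per gene symbol deposited by the authors. Per the labels' protocols each embryo had its own tube and a TruSeq RNA kit was used for the library. The build is GRCm38 (mm10) per the submitters' processing notes, while aligner, counter, annotation and strandedness are not given in the sources used. Columns were matched to samples by name, and 0 were left over.

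Genes with at least 1 TPM in at least 4 embryos were kept (13596). On log2(TPM + 1), limma 3.58.1 (R 4.3.3) gave two-sided tests of the genotype effect, with a mean-variance trend and no other term, and Benjamini-Hochberg adjustment over all kept genes at 0.05. The added 1 makes fold changes understate those of low genes such as Lhx9. Reads were recovered with merged exon lengths of the GENCODE release M21, where 38009 of 41709 symbols were found. Of 23013 such genes with a value, 22468 were whole within 0.02 reads in all 8 libraries, all 9 genes among them. The fit was tested on simulated data. Correlations are over embryos and carry no p.

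The 9 genes and the lists were chosen with earlier results of these data known, and some genes of the lists are not reported here. Named are all 9, up to 4 genes of smallest p per list, relatives of the 9, and the tested gene with the highest r to each. Bmp4, Shh, Fgf8, Fgf10 and Hoxa13 fall outside this rule and were chosen after their values were seen. Hoxd12 falls within it but was also picked after its values were seen. Also outside it are mt-Nd6, given to describe the libraries, and the loci that share exon bases with Tbx3, Pitx1 or Sall4. Alternatives were other pseudocounts, filters, scaling, variance models, weights, a covariate, the replicate block and left-out embryos, and, chosen after seeing the data, limma voom on recovered reads.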

Additional observations from a re-analysis of the deposited data

Results flagged for a closer look

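Tbx4 in WT 1 stood apart from the other WT embryos. Its 19.3 TPM was separated from the next WT value, 8.83 TPM, by a gap that made up a fraction of 0.86 of the whole WT range, above the limit that Dixon's criterion sets for 4 values at the 95% level. Chance puts about 1 in 20 such groups past this limit, and 18 groups (9 genes in 2 genotypes) were looked at. Tbx4 rested on 1231 reads in WT 1 and on 450 to 573 reads in the other WT embryos.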

How the results depend on the processing

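No alternative brought any of the 9 genes past the threshold. Of 170 refitted log2 fold changes 149 kept their sign and 21 changed it, with a smallest adjusted p of 0.32, and the median over the genes ran from -0.04 to 0.12. The sign changed for Irx5 with median-ratio scaling (0.03), for Tbx3 (-0.02) and Sall1 (0.05) with array weights, for Sall1 with the yolk sac covariate (0.14), and for Grem1 (-0.04), Irx5 (0.03) and Sall4 (-0.15) without mutants 3 and 4; the cause was not tested. Leaving out each embryo in turn gave log2 fold changes of -0.004 to 0.12 for Grem1, -0.12 to 0.07 for Irx5, -0.44 to 0.03 for Lhx9, -0.05 to 0.32 for Pitx1, -0.36 to -0.08 for Prrx1, -0.19 to 0.13 for Sall1, -0.06 to 0.25 for Sall4, -0.11 to 0.10 for Tbx3 and 0.07 to 0.51 for Tbx4. Lhx9 was not tested with a minimum of 5 TPM, and its log2 fold change was -0.35 with a pseudocount of 0.1 and -0.40 with limma voom. Over all genes limma called 0 to 1 with 1 embryo left out (1 without mutant 2) and 3 without mutants 3 and 4, and at an unadjusted p under 0.05 it gave 1842, 3511 with array weights and 1158 to 3094 with 1 embryo left out. The replicate block called 0 genes, with 1900 at an unadjusted p under 0.05, and left the median over the 9 at 0.007. The numbers do not pair embryos: deviations of same-numbered embryos correlated at -0.0618, 0.0398, -0.194 and -0.245, and 0 of 8 embryos correlated best with their own number.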

Other observations

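Further lists cover tissues in which these regulators also act. Of 7 genes of the apical ectodermal ridge of the limb, 1 was higher and 6 were lower in mutants, where 37.7% of all genes were higher. Their median log2 fold change was -0.18, with 0 past limma's threshold and 0 at an unadjusted p under 0.05. The ridge list summed to 99.4 to 122 TPM in WT and 90.0 to 128 TPM in mutants. Of 7 genes of gonad and mesonephros, where Lhx9 and Sall1 are also made, 4 were higher and 3 lower, where 37.7% of all genes were higher. Under median-ratio scaling 5 were higher and 2 lower, where 48.9% of all genes were higher. By limma 0 passed the threshold. At an unadjusted p under 0.05 there were 2 higher and 1 lower, where 5.55% and 8.0% of all genes were. Gata4, a zinc finger gene of heart, gut and gonad, was at 11.1 ± 2.71 TPM in WT against 27.4 ± 6.71 TPM in mutants (limma adjusted p = 0.203). Emx2, a homeobox gene of forebrain and urogenital tract, was at 14.2 ± 1.75 and 8.81 ± 1.90 TPM (limma adjusted p = 0.281), and for both the groups did not overlap. Of 5 genes of oral ectoderm and pituitary, where Pitx1 is also made, 3 were tested and 0 passed by limma, with 0 at an unadjusted p under 0.05. Barx1, a homeobox gene of arch and stomach mesenchyme in that list, was at 34.7, 43.2, 10.9 and 28.6 TPM in WT 1 to 4 and 10.6, 9.79, 33.6 and 7.73 TPM in mutants 1 to 4, with WT 1, WT 2, WT 4 and mutant 3 high. Of these, WT 1 was among the low embryos for Lhx9.

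The 3 Hedgehog targets Gli1, Ptch1 and Hhip were all lower on average in mutants, where 37.7% of all genes were higher. By limma 0 passed the threshold, 0 had an unadjusted p under 0.05, and the median log2 fold change was -0.12. Gli1 was at 28.5 ± 1.91 TPM in WT against 20.6 ± 7.61 TPM in mutants (limma unadjusted p = 0.0528, adjusted p = 0.372). Its log2 fold change was -0.53, against -0.12 for Ptch1 and -0.10 for Hhip. Under median-ratio scaling 1 of the 3 was lower at an unadjusted p under 0.05, where 6.91% of all genes were. Mutant 3 had the lowest summed TPM of the 3 targets, 38.6, while the sum was 57.0 to 73.9 in the remaining 7 embryos. In that embryo Grem1 was at 7.09 TPM, against 5.26 to 7.10 TPM in WT, and Tbx3 at 13.2 TPM, against 10.8 to 17.3 TPM. Tbx4 at 13.0 TPM and Pitx1 at 52.3 TPM were above every WT embryo except WT 1. The library of mutant 3 was among those that stood apart, with small nucleolar RNA host genes summing to 270 TPM and mt-Nd6 at 4.06 TPM. Whether the regulators follow the Hedgehog targets was not tested.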
